A study of Mus musculus with 2 samples.

Results

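The genes examined were 40 genes of the nuclear DNA replication machinery, selected by name with earlier results of these data known. They were sorted into 13 complexes or steps, from origin recognition to the joining and untangling of finished strands. Every probe set whose annotation named 1 of these genes and no other was taken, which gave 85 probe sets out of 45037 other than controls. The 40 genes stood among 18193 genes with a probe set of their own. Expression had been measured in CD8+ T cells of pmel-1 mice, whose transgenic T cell receptor recognises a melanocyte protein, so that most of their CD8+ T cells share a specificity. The 2 groups were purified naive cells and purified cells that were proliferating 72 h after activation, each represented by RNA pooled from 4 independent experiments and hybridised to 1 Affymetrix array. The mice of both groups carried the same receptor transgene, and the activating stimulus, the age of the mice, any other allele and the purification method are not stated in the labels. With 1 array per group there is no replicate error and no test, and differences are given as sizes.

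Replication starts from origins where a loading complex of ORC, CDC6 and CDT1 places the MCM helicase on DNA before S phase. The CDC7-DBF4 kinase, CDC45 and the GINS complex then turn the loaded helicase into a moving fork, where polymerases alpha, delta and epsilon copy the strands, the PCNA clamp and its RFC loader hold the polymerases on DNA, and RPA coats exposed strands. Naive T cells rest outside the cell cycle, and after stimulation they divide several times within days, so several of these genes are used as markers of cycling lymphocytes.

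Of the 40 genes, 39 were higher in activated cells by the size rule and none was lower, against 23.7% higher and 20.6% lower among 9842 measured genes. The size rule asks for a ratio of at least 1.4 between the arrays, with values under 100 raised to 100, and for deposited intensities that differ by more than 100. A gene counts as measured when its brightest probe set reached 100 on either array, and all 40 did. The members' median log2 ratio of activated over naive was 1.69 (3.23-fold), beside 0.01 over all measured genes. For 7 members the naive value lay under 100, and these enter the median at their lower bound. At least 2-fold higher were 33 of 40 members (82.5%), against 12.1% of measured genes, and at least 4-fold higher were 14 (35.0%), against 3.27%. The members' log2 ratios ran from 0.27 for Rpa1 to 3.72 for Cdc6, and 32 of the 40 lay above the 90th percentile of measured genes (1.12). In pooled RNA, more cells of a dividing type and more RNA per cell cannot be told apart.

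**Figure D1:**
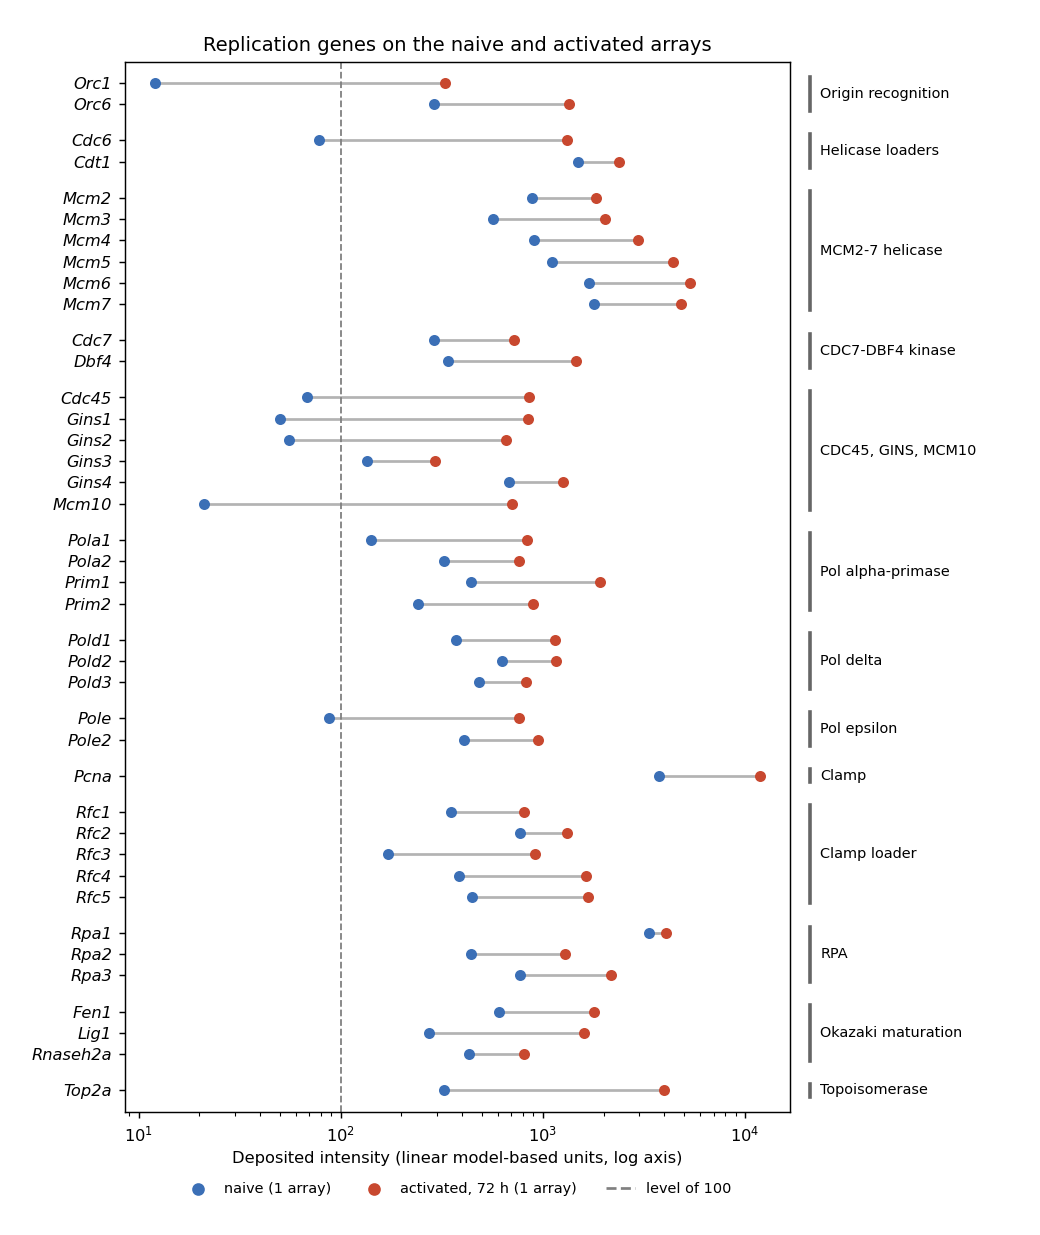
Deposited intensities (log axis, linear model-based units) of the 40 replication genes by their brightest probe set, with 1 array per group, naive in blue and activated at 72 h in red, grouped by complex. Each activated value lies above its naive value, 7 genes start left of the dashed line at 100, and Rpa1 has the shortest bar (3366 and 4059).

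Both arrays held abundant CD8 T cell transcripts. All 8 CD8 T cell markers with a probe set of their own exceeded 100 on both arrays, and their summed intensity was 39743 in naive and 28964 in activated cells. By the size rule 3 of the 8 were lower in activated cells, Cd8b1 at 7725 and 3554 (2.17-fold), Thy1 at 4763 and 2751 (1.73-fold) and Cd247 at 3036 and 1984 (1.53-fold), and none was higher. The other CD8 T cell markers, among them Cd8a at 6020.4 and 4860.0 and Cd3e at 3035 and 2724, did not pass. Markers of 8 other cell types had 29 genes with a probe set, of which 14 reached 100 in naive and 5 in activated cells. By the size rule 9 of these 29 were lower in activated cells and 1, the plasma cell marker Sdc1, higher, and no dendritic or CD4 T cell marker passed. Summed over the markers of each type, intensities on the naive and activated arrays were 7114 and 172 for erythroid cells, 3589 and 571 for B cells, 1902 and 482 for plasma cells, 1102 and 519 for myeloid cells, 525 and 29.8 for thymocytes, 297 and 57.7 for NK cells, 264 and 159 for dendritic cells, and 149.6 and 136 for CD4 T cells. Most of the naive sum came from a single gene for erythroid cells (Hbb-b2, 6852), B cells (Cd74, 3003) and plasma cells (Jchain, 1768). Klf1 of the erythroid list (84.5 and 124) and Prdm1 of the plasma cell list (70.2 and 136) had larger activated values and did not pass. Of the thymocyte markers, Rag1 and Rag2 were listed at the lowest value, 1, in naive cells, and the thymocyte sum there came mostly from Dntt (489.8). In activated cells the erythroid markers Hbb-b2 and Alas2 and the thymocyte marker Rag2 were at that lowest value. The part of these other cells in the replication differences was not tested. Signal at the 3' end over signal at the 5' end, which rises as RNA degrades, was similar in both pools, for Actb 1.20 (naive) and 1.11 (activated) and for Gapdh 0.851 and 0.859.

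The promoters of the members are shown because the genes moved together and because replication genes are textbook targets of E2F, the transcription factors that act at the entry into S phase. RefSeq promoter windows (assembly GRCm38.p6, 250 bases before and 50 after each gene's start) were found for 33 of the 40 members. Both strands were searched for 4 words of the E2F consensus, TTTCCCGC, TTTGGCGC, TTTGCCGC and TTTCGCGC. At least 1 word was found for 14 of the 33 members (42.4%), namely Cdc6, Cdt1, Gins3, Lig1, Mcm3, Mcm5, Mcm6, Mcm7, Orc1, Pola1, Pold1, Pold3, Pole2 and Rfc3. Among all windows of that length 744 of 32851 (2.26%) held a word, and among measured genes with a window 406 of 8041 (5.05%). The bases before the start are printed for 6 members whose match lay there, each the member with the highest ratio of its complex among such members, in order of ratio from Cdc6 to Gins3. Capitals mark the E2F words, read 5' to 3' on the gene's strand.
Cdc6 (chr11:98907901-98908150, + strand): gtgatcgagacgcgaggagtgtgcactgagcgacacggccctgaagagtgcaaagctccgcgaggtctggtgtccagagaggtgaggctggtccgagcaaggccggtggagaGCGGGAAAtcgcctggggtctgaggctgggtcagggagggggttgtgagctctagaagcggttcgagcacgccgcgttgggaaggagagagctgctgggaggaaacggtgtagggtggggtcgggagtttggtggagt
Pola1 (chrX:93632156-93632405, - strand): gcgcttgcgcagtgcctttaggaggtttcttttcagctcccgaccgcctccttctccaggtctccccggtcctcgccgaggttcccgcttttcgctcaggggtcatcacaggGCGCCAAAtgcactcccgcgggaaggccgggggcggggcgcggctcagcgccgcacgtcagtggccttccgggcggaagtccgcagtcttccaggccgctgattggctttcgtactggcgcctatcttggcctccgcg
Rfc3 (chr5:151651209-151651458, - strand): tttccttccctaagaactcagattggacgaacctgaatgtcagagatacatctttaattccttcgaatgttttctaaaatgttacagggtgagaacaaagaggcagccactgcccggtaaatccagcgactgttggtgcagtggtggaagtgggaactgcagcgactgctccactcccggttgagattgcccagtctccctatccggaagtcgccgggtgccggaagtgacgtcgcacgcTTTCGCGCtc
Mcm5 (chr8:75109259-75109508, + strand): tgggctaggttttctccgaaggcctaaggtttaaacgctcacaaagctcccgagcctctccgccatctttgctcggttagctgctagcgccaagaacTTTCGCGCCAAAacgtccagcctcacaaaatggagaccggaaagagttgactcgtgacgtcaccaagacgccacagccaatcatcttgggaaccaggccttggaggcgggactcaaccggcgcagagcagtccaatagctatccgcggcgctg
Orc1 (chr4:108579204-108579453, + strand): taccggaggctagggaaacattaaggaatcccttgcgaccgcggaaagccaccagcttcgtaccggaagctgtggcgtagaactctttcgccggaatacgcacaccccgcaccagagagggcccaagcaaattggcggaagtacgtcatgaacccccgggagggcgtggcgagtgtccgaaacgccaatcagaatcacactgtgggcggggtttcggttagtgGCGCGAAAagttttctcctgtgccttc
Gins3 (chr8:95633309-95633558, + strand): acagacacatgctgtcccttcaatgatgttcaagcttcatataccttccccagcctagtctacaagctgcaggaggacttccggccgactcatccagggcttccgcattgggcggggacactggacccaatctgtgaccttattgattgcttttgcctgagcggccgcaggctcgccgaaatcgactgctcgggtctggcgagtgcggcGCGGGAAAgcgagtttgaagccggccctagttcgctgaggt
The words began 138 bases before the start in Cdc6 and Pola1, 153 in Mcm5, 41 in Gins3, 27 in Orc1 and 10 in Rfc3. In Mcm5 the capitals are a pair of overlapping words on opposite strands.

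A match describes the letters in the window and is no evidence of binding. The 14 members with an E2F word had a median log2 ratio of 1.69, all of them higher by the size rule, and the 19 without a word had 1.56, with 18 higher. The ranges overlapped, from 0.67 to 3.72 with a word and from 0.27 to 3.62 without. Over all measured genes with a window, 141 of 406 genes with a word were higher (34.7%, median 0.22), beside 1771 of 7635 without (23.2%, median 0.01). The short word CCAAT, the core of the NF-Y site, shared no base with the E2F words printed here and occurred on either strand for 21 of 33 members (63.6%), beside 12289 of 32851 windows (37.4%) and 3477 of 8041 measured genes with a window (43.2%).

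Origin recognition marks where replication can begin, and its largest subunit, Orc1, was under 100 in naive cells by both its probe sets. Orc1 was at 12.1 in the naive and 329 in the activated pool (at least 3.29-fold higher). Its other probe set, at 88.0 and 163, gave a log2 ratio of at least 0.70 and did not pass the size rule. Orc6, the smallest subunit, was at 289 in the naive and 1342 in the activated pool (4.64-fold higher). Both genes were thus higher, from different starting levels relative to the floor of 100.

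Further subunits of the origin recognition complex, named after their values were seen, divided. Orc2 was at 276 and 793 (2.87-fold higher), with probe sets from 0.60 to 1.52 on the log2 scale. Orc3 (658 and 786), Orc4 (614 and 725) and Orc5 (469 and 581) did not pass the size rule, at log2 ratios of 0.26, 0.24 and 0.31. By the brightest probe sets the complex therefore held a set of 3 genes with ratios of at least 1.52 on the log2 scale and a set of 3 at or under 0.31.

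The helicase loaders differed most within a step. Cdc6, the ATPase that closes the MCM ring on DNA together with ORC, was at 78.5 in the naive and 1315 in the activated pool (at least 13.1-fold higher). With the floor at 100 that was the highest of the 40 ratios, but the rank rests on the floor. At a floor of 50 Gins1 and Cdc6 were nearly level (log2 ratios of at least 4.072 and of 4.066). At 200 Top2a was highest (3.62, against at least 2.72 for Cdc6). Cdt1, which brings MCM to the origin and is destroyed once S phase begins, was at 1503 in the naive and 2397 in the activated pool (1.60-fold higher, second probe set 2.02-fold). Geminin, which binds and blocks CDT1 in S phase and G2, is encoded by Gmnn and was at 409 and 2765 (6.75-fold higher). The pair of loaders thus spanned at least 3.04 on the log2 scale, a bound set by the floor under the naive value of Cdc6. Measured probe sets of the same gene had a standard deviation of 0.467 over 4292 genes and of 0.65 over the 26 members with several.

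The MCM helicase, a ring of 6 related ATPases that unwinds DNA, had all its subunits well above 100 in naive cells and higher in activated cells. Mcm2 was at 881 in the naive and 1825 in the activated pool, 2.07-fold higher and the lowest ratio of the ring. Mcm5 was at 1106 in the naive and 4393 in the activated pool, 3.97-fold higher and the highest ratio of the ring. Between them lay Mcm3 (565 and 2025, 3.58-fold), Mcm4 (904 and 2953, 3.27-fold), Mcm6 (1685 and 5372, 3.19-fold) and Mcm7 (1803 and 4809, 2.67-fold). Every measured probe set of the ring passed the size rule, 17 of 17, with log2 ratios from 1.05 to 2.31. The 6 genes thus moved within a span of 0.94 on the log2 scale, and the probe sets of Mcm3 alone spread from 1.16 to 2.31.

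Firing factors convert the loaded ring into an active fork. The kinase gene Cdc7 was at 290.4 in the naive and 722 in the activated pool (2.49-fold higher), with a second, dim probe set at a log2 ratio of at least 0.71 that did not pass. Dbf4, whose product activates CDC7, was at 341 in the naive and 1456 in the activated pool (4.27-fold higher). Cdc45, which joins the ring at firing, was at 68.0 in the naive and 857 in the activated pool by its brightest probe set (at least 8.57-fold higher). A second probe set of Cdc45 was at 184 and 147, a log2 ratio of -0.33, so the gene's direction rests on the probe set taken.

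The GINS complex holds CDC45 and the MCM ring together, and its 4 subunit genes differed in their level in naive cells. Gins1 was at 49.8 in the naive and 841 in the activated pool (at least 8.41-fold higher), and Gins2 at 55.4 and 657 (at least 6.57-fold higher). Gins3 was at 134 and 292 (2.17-fold higher), and Gins4 at 682 and 1258 (1.84-fold higher). A second probe set of Gins3, at 82.4 and 177, gave a log2 ratio of at least 0.82 and did not pass. By the brightest probe sets Gins1 and Gins2 had the larger ratios, and these ratios are lower bounds. Because the naive value is the denominator of the ratio, naive level and ratio are not independent. Mcm10, a firing factor outside the ring despite its name, was at 21.1 in the naive and 706 in the activated pool (at least 7.06-fold higher), although its other measured probe set was at 71.1 and 108. By the brightest probe sets Cdc45, the GINS genes and Mcm10 had a median log2 ratio of 2.77, while the median of all measured probe sets per gene gave 1.42 for the same 6 genes.

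By the brightest probe sets, members under 100 in naive cells and higher in activated cells numbered 7 of 40 (17.5%), against 4.04% of measured genes. They were Orc1, Cdc6, Cdc45, Gins1, Gins2, Mcm10 and Pole. Of these, 6 act in origin recognition, loading or firing, and Pole at the fork. A gene under 100 in naive cells is measured only through its activated value, so it could not come out lower. That holds for the members and for the 4.04% alike. The brightest probe set is also chosen by the mean of both arrays. For Orc1, Cdc45 and Mcm10 it had a lower naive value than the other measured probe set of the gene. The second probe set of Cdc45 was not under 100 in naive cells (184). Members in those steps numbered 2 for origin recognition, 2 for the loaders, 2 for the firing kinase and 6 for Cdc45, GINS and Mcm10. None of the 6 MCM ring genes and none of the clamp, clamp loader, RPA or Okazaki genes was among them.

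**Figure D2:**
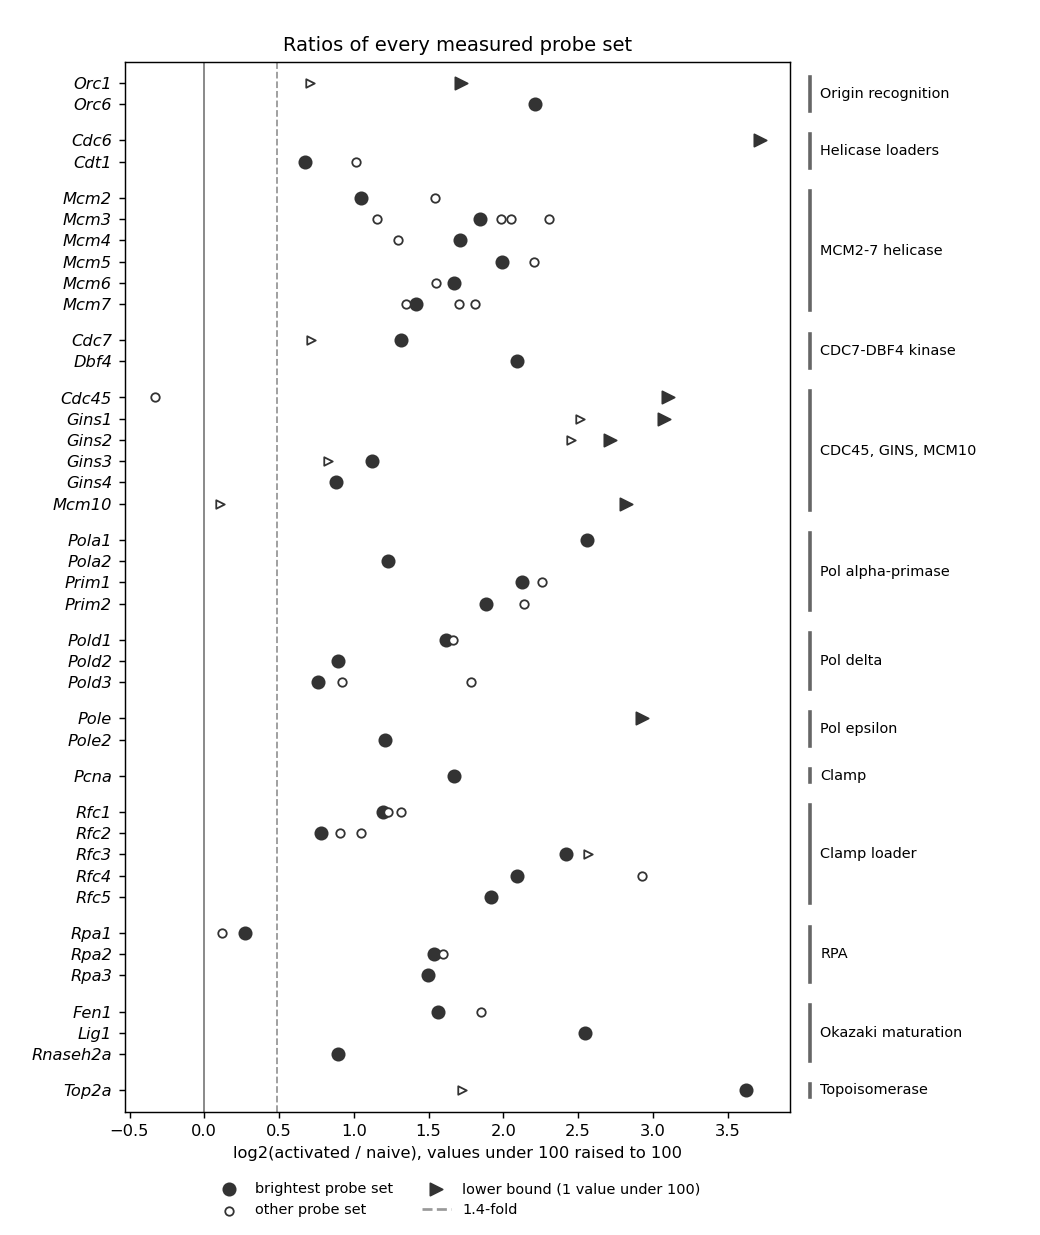
Log2 ratio of activated over naive for each of the 74 measured probe sets of the 40 genes, with filled symbols for the brightest probe set, open symbols for the others and triangles for lower bounds. The 7 symbols left of the dashed line at 1.4-fold or stopped by the difference minimum belong to Cdc45, Mcm10, Rpa1, Orc1, Cdc7 and Gins3, and a probe set of Cdc45 is the only symbol left of 0 (-0.33).

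Polymerase alpha-primase lays the RNA-DNA primers from which both strands are extended, and all 4 of its genes were higher. Pola1, the catalytic subunit, was at 141 in the naive and 833 in the activated pool (5.90-fold higher). Pola2, the accessory subunit, was at 325 and 762 (2.35-fold higher). The primase genes lay between them, with the catalytic Prim1 at 443 and 1929 (4.35-fold) and Prim2 at 242 and 895 (3.70-fold). Prim1 and Prim2 each had a second measured probe set with a somewhat larger log2 ratio, 2.26 and 2.14.

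Polymerase delta extends the lagging strand, and its genes had the lowest median of any complex represented by 2 or more members (log2 ratio 0.90). The catalytic subunit gene Pold1 was at 374 in the naive and 1148 in the activated pool (3.07-fold higher). The accessory subunits were Pold2, at 625 and 1164 (1.86-fold), and Pold3, at 486 and 825 (1.70-fold), and the probe sets of Pold3 reached 1.78 on the log2 scale. The small subunit gene Pold4, named after its value was seen, was at 464 and 427 and did not pass.

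Polymerase epsilon copies the leading strand and travels with the helicase. Pole, the catalytic subunit, was at 88.0 in the naive and 761 in the activated pool (at least 7.61-fold higher), and Pole2 at 408 and 946 (2.32-fold higher). The histone-fold subunits, which lie outside the 40 genes, went apart: Pole3, named after its value was seen, was at 247 and 732 (2.96-fold higher) and Pole4 at 807 and 839.6 (log2 ratio 0.06). In all 3 polymerases the catalytic subunit had the highest ratio of the subunits examined, by the brightest probe sets, although a dimmer probe set of Pold3 exceeded both probe sets of Pold1 (1.78 against 1.66 at most on the log2 scale).

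Pcna, the ring that tethers polymerases to DNA, was at 3740.0 in the naive and 11906 in the activated pool (3.18-fold higher) by its only probe set. It was therefore already far above the floor in naive cells. Of genes whose products bind the clamp, Fen1 and Lig1 are described with the lagging strand, and Pclaf, encoding a PCNA-associated factor of S phase, was at 528 and 6264 (11.9-fold higher).

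The clamp loader RFC opens PCNA, and its 5 genes fell into lower and higher ratios. Rfc2 was at 772 in the naive and 1325 in the activated pool (1.72-fold higher), and the large subunit gene Rfc1 at 353 and 807 (2.29-fold). Rfc3 was at 171 in the naive and 912 in the activated pool (5.34-fold higher). Rfc4 (386 and 1646, 4.26-fold) and Rfc5 (444 and 1676, 3.77-fold) followed. The measured probe sets kept the lower and higher ratios apart. The 6 of Rfc1 and Rfc2 lay from 0.78 to 1.32 on the log2 scale, and the 5 of Rfc3, Rfc4 and Rfc5 from 1.92 to 2.93.

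Alternative loaders replace RFC1 with another large subunit on the shared small subunits. Atad5, which unloads PCNA, was at 206 and 832 (4.05-fold higher). Chtf18 was at 22.3 and 208 (at least 2.08-fold higher), its partner Dscc1 at 60.6 and 492 (at least 4.92-fold higher), and their partner Chtf8 at 336 and 357. Rad17, which loads the checkpoint clamp, was at 646 and 777 and did not pass. Atad5, Chtf18 and Rad17 were named after their values were seen.

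RPA coats exposed strands as a trimer, and its genes went apart. Rpa1, the large subunit, was at 3366 in the naive and 4059 in the activated pool, a log2 ratio of 0.27, and was the only member that did not pass the size rule by its brightest probe set. A second probe set of Rpa1 gave 0.12. Rpa2 was at 443 in the naive and 1282 in the activated pool (2.89-fold higher), with a second probe set at 1.59 on the log2 scale. Rpa3 was at 773 in the naive and 2175 in the activated pool (2.81-fold higher). Rpa2 and Rpa3 thus lay within 0.04 of each other on the log2 scale, and Rpa1 lay 1.22 below the nearer of them.

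Lagging-strand fragments are finished by removing the primer and sealing the nick. Lig1, the replicative DNA ligase, was at 273 in the naive and 1595 in the activated pool (5.84-fold higher), the highest ratio of this step. Fen1, the flap nuclease, was at 605 in the naive and 1786 in the activated pool (2.95-fold higher, second probe set 3.60-fold). Rnaseh2a, the catalytic subunit of RNase H2, was at 433 and 805 (1.86-fold higher). The other RNase H2 subunits, named after their values were seen, were Rnaseh2b, at 925 and 2607 (2.82-fold higher), and Rnaseh2c, at 728 and 963, which did not pass. A dimmer probe set of Rnaseh2c, at 292 and 475, was higher by the size rule (1.63-fold), and another, at 549 and 692, did not pass. Lig3, a ligase of repair and mitochondria, was at 485 and 462 (log2 ratio -0.07), with other measured probe sets up to 0.77.

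Topoisomerase II alpha separates intertwined sister chromatids and is made in S phase and G2. Top2a was at 323 in the naive and 3972 in the activated pool (12.3-fold higher), while a dimmer probe set, at 36.2 and 331, gave at least 3.31-fold. Its paralogue Top2b, which is also used outside the cell cycle, was at 2941 and 1653 (1.78-fold lower), and all 3 of its probe sets had negative log2 ratios, from -0.83 to -0.55. Top1, named after its values were seen, was at 1076 and 1323 and did not pass (log2 ratio 0.30), while a dimmer probe set, at 178 in naive and under 100 in activated cells, was lower by the size rule (at least 1.78-fold). The paralogues of topoisomerase II thus differed in direction between the same 2 arrays.

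**Figure D3:**
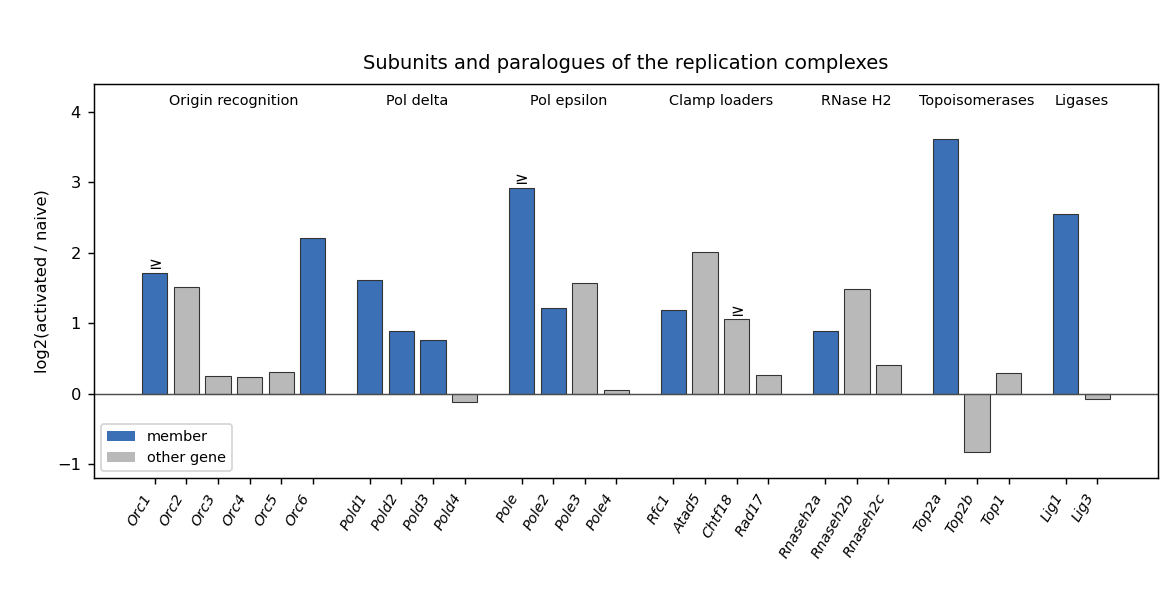
Log2 ratio of activated over naive for members (blue) and for other subunits or paralogues of the same complexes (grey), brightest probe set of each gene, 1 array per group, with lower bounds marked. Orc3, Orc4, Orc5, Pold4, Pole4, Rad17, Rnaseh2c, Top1 and Lig3 lie between -0.12 and 0.40, and Orc2, Pole3, Atad5, Chtf18 and Rnaseh2b between 1.06 and 2.02, beside members from 0.76 to 3.62, and Top2b lies at -0.83.

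A list of 37 other replication genes, chosen like the members with earlier results of these data known, gave a lower share than the members. Of these, 23 were higher (62.2%) and 1, Top2b, was lower, with a median log2 ratio of 0.85, beside the members' 1.69 and 0.01 for all measured genes. After Pclaf, the largest ratios belonged to Clspn, a mediator of the replication checkpoint (8.03-fold, 113 and 908), Gmnn, the nuclease-helicase gene Dna2 (at least 6.39-fold, 64.9 and 639), Mms22l, which acts at stalled forks (6.35-fold, 114 and 721), and Dscc1. A second probe set of Clspn gave at least 0.31 on the log2 scale. Nearest to no difference were Mcm9, an MCM relative used in recombination (171 and 174), Pole4, the acetyltransferase gene Kat7 (668 and 706) and Chtf8. Repair and translesion polymerases and ligases had a median of 0.10 over 12 measured genes and mitochondrial replication genes 0.14 over 10.

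**Figure D4:**
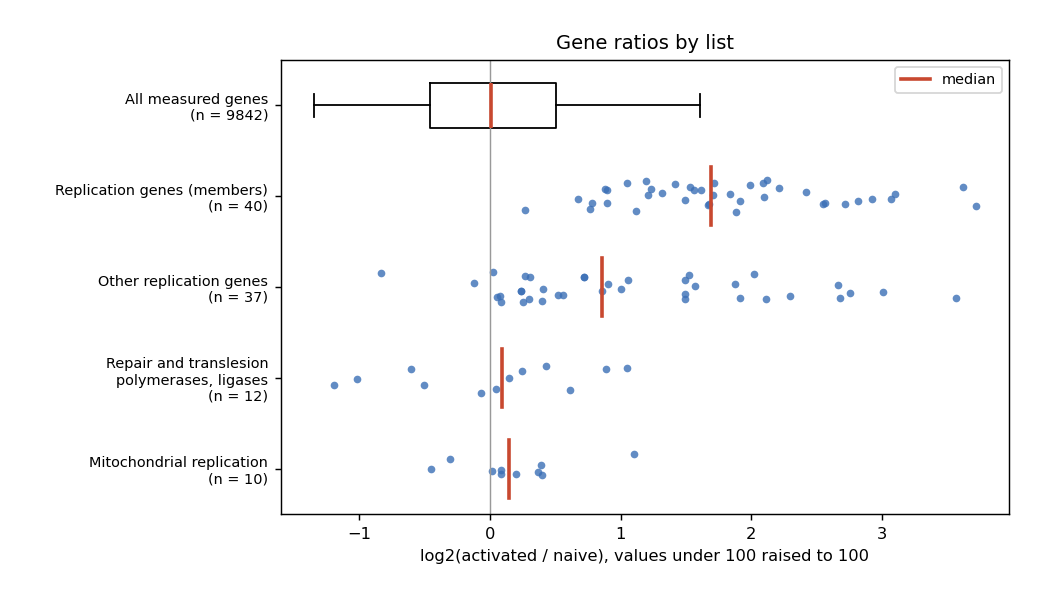
Log2 ratios of activated over naive by gene list, with 1 point per measured gene (brightest probe set) and a red line at each median; for all 9842 measured genes the box spans the middle 50% (-0.45 to 0.51) and the whiskers the 5th to 95th percentiles (-1.35 to 1.61). The 40 members centre at 1.69, the other replication genes at 0.85, the repair and translesion list at 0.10 and the mitochondrial list at 0.14.

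Probe sets of the same member did not always agree. Of 85 member probe sets, 11 lay under 100 on both arrays and 67 of the 74 measured ones were higher and none lower, against 23.2% higher and 19.2% lower among measured probe sets that name 1 gene. In 34 of 40 genes every measured probe set passed. The exceptions were Rpa1 and 5 genes with a second probe set of lower mean intensity, namely Orc1, Cdc7, Cdc45, Gins3 and Mcm10. On the naive array alone that second probe set was the brighter one for Orc1 (88.0 against 12.1), Cdc45 (184 against 68.0) and Mcm10 (71.1 against 21.1). Among the 26 members with several measured probe sets the standard deviation within a gene was 0.65 on the log2 scale, beside 0.82 between the 40 genes. Of these 26 members, 6 had measured probe sets more than 1 apart. The widest spreads, which weigh most in the 0.65, were those of Cdc45 (-0.33 to 3.10) and Mcm10 (0.10 to 2.82). A gene with 1 measured probe set, as for 14 members, has no such check. By the ending of their names, 18 of the 85 probe sets belong to classes (s or x) that can share probes with other transcripts.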

How the data were processed

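The authors deposited 1 intensity per probe set and array on a linear scale, computed with dChip's difference model and normalized by its invariant set method, per the series' design text. That model subtracts mismatch from perfect-match signal, so values near background carry little information (the lowest is 1). GCOS present calls, named in the submitters' processing notes, were not used here, and the version of dChip is not stated.

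Symbols were read from the platform annotation (34945 probe sets with 1 symbol, 932 with several, 9160 with none), and all 85 member probe sets matched RefSeq by Entrez identifier. A gene's brightest probe set (highest mean of the 2 arrays) stood for it. Folds with a value under 100 on 1 array are lower bounds ("at least"). The study's rule also asks for a present call and a confidence bound, so the size rule is looser. The calling step was tested on simulated data with differences planted only in genes well above the floor. The calling of differences near 100 was therefore not tested.

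The members and lists were chosen with earlier results of these data known. Named were all 40 members and, per other list, up to 6 largest ratios past the size rule, every lower gene and up to 4 nearest to 0; further names are marked in the text. Alternatives changed the fold minimum (2, 4), difference minimum (50, 200), floor (50, 200), scaling (median, quantile, loess) and probe set. Python 3.11.15, pandas 2.3.3 and statsmodels 0.14.6 were used.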

Additional observations from a re-analysis of the deposited data

How the results depend on the processing

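No paired analysis was possible because each group was 1 array, and no array could be left out. The count of 39 higher members was 33 at a fold minimum of 2, 14 at 4, 38 at a difference minimum of 200, 34 by the probe set nearest to 0, and 32 of 34 by plain probe sets (names ending in _at alone), and 39 under the other settings tried; no member was lower under any. The 67 higher of 74 measured member probe sets became 23 of 74 at a fold minimum of 4 and 36 of 41 among plain probe sets. Scaling moved the median of all measured genes by at most 0.03 on the log2 scale and changed no member's call. The members' median of 1.69 became 1.68 under median, 1.57 under quantile and 1.59 under loess scaling. Under quantile and loess scaling the log2 ratio was 1.45 and 1.43 for Pcna (1.67 before) and 0.07 and 0.09 for Rpa1 (0.27 before). Cdc45 reversed to -0.33 by its probe set nearest to 0.

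Medians by complex are compared with the spread of 0.467 between probe sets of a gene over all genes (0.65 over the members), since no replicate spread exists. The floor moved those with genes under it. A floor of 50 gave 2.47 for origin recognition and 3.61 for Cdc45, GINS and Mcm10. A floor of 200 gave 1.47 and 1.77 for these, 1.70 for the loaders and 1.57 for polymerase epsilon. The median over probe sets gave 1.42 for Cdc45, GINS and Mcm10 and 2.67 for Top2a. The probe set nearest to 0 gave 0.85 and 1.73 for these and 1.46 for origin recognition. Plain probe sets gave 1.79 and 1.73 for these, 1.02 for the loaders, 1.21 for polymerase epsilon and 2.55 for Okazaki maturation, with fewer genes.

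Of the other replication genes, 8 were higher at a fold minimum of 4, and the count lower was 0 at fold minima of 2 and 4 and 2 by the median over probe sets. In the repair list the count higher (2) was 1 at a difference minimum of 200, a fold minimum of 2, a floor of 200, the median over probe sets and plain probe sets, and 0 at a fold minimum of 4 and by the probe set nearest to 0. Its count lower (2) was 0 at a fold minimum of 4 and among plain probe sets, and 4 at a difference minimum of 50. In the mitochondrial list the count higher (1) was 0 at a difference minimum of 200, a fold minimum of 4, a floor of 200 and plain probe sets, and the count lower (0) was 1 under quantile and loess scaling. Signal near the floor of 100 limits the ratios of the 7 members with a naive value below it.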

Other observations

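DNA polymerases and ligases of repair and of damage bypass had ratios spread around 0. Of 12 measured genes in that list, 2 were higher and 2 lower by the size rule (16.7% each way, against 23.7% higher and 20.6% lower among measured genes), with a median log2 ratio of 0.10. Rev3l, the catalytic subunit of the bypass polymerase zeta, was at 1370.5 in the naive and 598 in the activated pool (2.29-fold lower), and Poli, polymerase iota, at 399 and 197 (2.02-fold lower). Polh, polymerase eta, was at 298 and 616 (2.07-fold higher), although its other measured probe set gave at least 0.05 on the log2 scale, and Polk, polymerase kappa, at 140.2 and 259 (1.85-fold higher, other probe set at least 0.37 on the log2 scale). Nearest to no difference were Mad2l2, the partner of REV3L (485 and 502), Lig3, the base excision repair polymerase gene Polb (610.5 and 674) and its partner Xrcc1 (279 and 330.4). Polq, Poln and Lig4, named after their values were seen, lay under 100 on both arrays.

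Of 10 measured genes that copy mitochondrial DNA, 1 was higher (10.0%) and none lower, against 23.7% higher and 20.6% lower among all measured genes, with a median log2 ratio of 0.14. The exception was the mitochondrial exonuclease gene Mgme1, at 115 and 247 (2.15-fold higher). The mitochondrial RNA polymerase Polrmt (435 and 439), the strand-binding protein gene Ssbp1 (2546 and 2699), the packaging factor Tfam (987 and 1050.1) and Top3a (105 and 120.5) lay nearest to no difference. The polymerase gamma genes Polg (373 and 302) and Polg2 (621 and 454), named after their values were seen, had negative log2 ratios, -0.31 and -0.45, and did not pass.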
